A study of Homo sapiens with 4 samples.

Results

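The genes described here are 8 regulators of mRNA decay that act through the removal of the poly(A) tail. They are the 3 genes of the tristetraprolin (TTP) family, ZFP36, ZFP36L1 and ZFP36L2, and 5 genes of the BTG/TOB family, BTG1, BTG2, BTG3, TOB1 and TOB2. They were chosen by name, by the current NCBI symbol of each gene identifier, from the 23459 genes that every library lists. All 8 were found, with 1 identifier each, and all 8 passed the filter on low counts.

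The RNA-Seq libraries came from hTERT RPE-1 cells of wild type genotype, a human retinal pigment epithelium line immortalized with telomerase. All cells were serum starved for 48 h in medium with 0.1% FBS and then received 200 µM merbarone, a catalytic inhibitor of DNA topoisomerase II. There were 2 libraries from cells treated for 4 h and 2 from cells treated for 8 h. Every group carried both the starvation and the drug, and untreated cells were not analysed here. Time in merbarone and time in low serum therefore cannot be told apart. Rises and falls below are changes from 4 h to 8 h, and their direction against untreated cells was not tested.

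The libraries held 8064450 to 10324697 counts on genes, with the smallest being replicate 2 at 8 h. Replicate variation was low, with a biological coefficient of variation (the spread between replicates estimated by edgeR) of 6.52%. Of 10 marker genes of retinal pigment epithelium, RPE65, BEST1, RLBP1, TYR, TYRP1 and TTR had at most 7 counts in any library, while the transcription factors MITF and OTX2 were present at 78.4 to 89.7 and 16.4 to 20.0 CPM, the counts of a gene relative to the library total. The mesenchymal marker VIM reached 8677 to 11251 CPM, the epithelial keratins KRT8 and KRT18 reached 237 to 389 CPM, and EPCAM and KRT19 had 0 counts in all libraries. Of the mesenchymal list, the collagen genes COL1A2 and COL3A1 had at most 2 and 13 counts. The collagen gene COL1A1 was at 41.5 to 88.3 CPM, CDH2 at 364 to 383, THY1 at 483 to 538 and PDGFRB at 298 to 326. The immune marker PTPRC had at most 8 counts, although CD68 was at 55.7 to 71.8 CPM. Between the times, 0 of 4 tested pigment epithelium markers, 2 of 3 epithelial (CLDN1 higher, KRT18 lower), 2 of 6 mesenchymal (1 in each direction) and 1 of 1 immune markers (CD68, higher) passed the test, and their part in the changes described here was not tested. These are bulk measurements, in which fewer cells that express a gene and less RNA per cell cannot be told apart.

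TTP, the protein of ZFP36, and its relatives ZFP36L1 and ZFP36L2 bind AU-rich elements in the 3′ UTR of short-lived transcripts through a pair of zinc fingers and bring in the CCR4-NOT deadenylase. TTP is best known for limiting cytokine mRNAs, is induced as an immediate-early gene, and also acts on its own transcript. BTG and TOB proteins bind the CNOT7 and CNOT8 nucleases of CCR4-NOT through a shared domain, activate deadenylation in general, and slow proliferation when overexpressed.

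The sequence that TTP-family proteins recognise is shown first, because the genes that encode them carry it too. Windows of 30 bases were read from the canonical 3′ UTR of GENCODE on GRCh37, the assembly that hg19 represents, and capitals mark the heptamer TATTTAT. The first window is given for the 4 genes with more than 1 heptamer and for BTG2, whose match lies nearest to the stop codon. Each is written 5′ to 3′ on the strand of the gene.
ZFP36 (chr19:39899828-39899857, + strand): ccttTATTTATgacgacttTATTTATtcta
ZFP36L1 (chr14:69255052-69255081, - strand): ttatcaaaacgTATTTATtgccaaactatg
ZFP36L2 (chr2:43450586-43450615, - strand): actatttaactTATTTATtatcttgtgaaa
BTG2 (chr1:203276656-203276685, + strand): aaatgaagagcTATTTATatatattatttt
BTG3 (chr21:18966148-18966177, - strand): ttggacttgagTATTTATatattgtgcatc

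The window of ZFP36 holds 2 heptamers, and a further one follows close after it. In the whole 3′ UTR, ZFP36 had 3 heptamers in 708 bases, ZFP36L1 had 3 in 1871 bases and ZFP36L2 had 3 in 1917 bases. In the BTG/TOB family, BTG3 had 2 in only 440 bases, while BTG1, BTG2 and TOB2 had 1 each in 3802, 2164 and 2817 bases. TOB1 had 0 in 757 bases. Per kilobase, BTG3 with 4.55 and ZFP36 with 4.24 heptamers stood above the other 6 genes, which had at most 1.60. For comparison, 31.9% of 18588 canonical 3′ UTRs, of median length 1076 bases, held at least 1. A match describes letters in the annotated UTR and does not show binding.

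**Figure D1:**
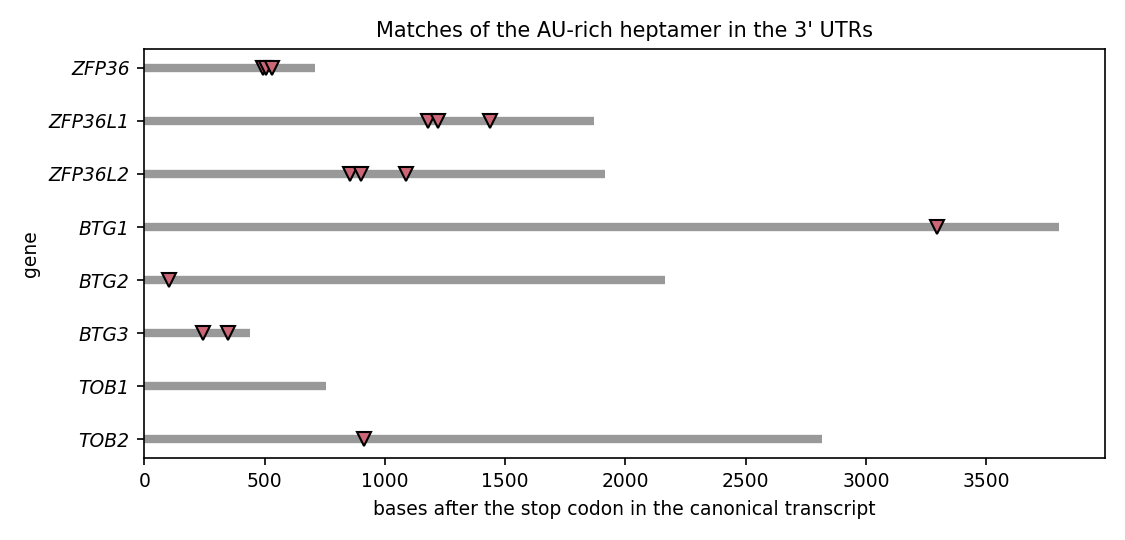
Positions of the TATTTAT heptamer (triangles) along the canonical 3′ UTR of each gene (grey bar), in bases after the stop codon. The 3 matches of ZFP36 lie at 493, 508 and 533 bases, whereas those of ZFP36L1 and ZFP36L2 are spread over longer UTRs, and the TOB1 bar carries no triangle.

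Promoters are shown for the 2 TTP-family genes that rose and for BTG2, the BTG/TOB gene whose promoter holds EGR sites. RefSeq (GRCh38.p14) gave 9 promoters for 7 of the 8 genes, ZFP36L2 being without an entry. Each runs from 250 bases before the start of the gene to 50 after it, and capitals mark any match, on either strand, to the 11 motifs searched. For ZFP36L1 the more downstream of its starts is given.
ZFP36 (chr19:39406597-39406896, + strand): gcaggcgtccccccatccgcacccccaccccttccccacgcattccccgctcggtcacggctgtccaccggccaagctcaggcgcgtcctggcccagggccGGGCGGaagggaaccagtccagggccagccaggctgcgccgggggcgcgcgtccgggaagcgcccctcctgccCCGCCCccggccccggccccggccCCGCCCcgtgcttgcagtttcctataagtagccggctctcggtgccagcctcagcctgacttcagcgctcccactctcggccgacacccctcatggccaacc
ZFP36L1 (chr14:68793367-68793666, - strand): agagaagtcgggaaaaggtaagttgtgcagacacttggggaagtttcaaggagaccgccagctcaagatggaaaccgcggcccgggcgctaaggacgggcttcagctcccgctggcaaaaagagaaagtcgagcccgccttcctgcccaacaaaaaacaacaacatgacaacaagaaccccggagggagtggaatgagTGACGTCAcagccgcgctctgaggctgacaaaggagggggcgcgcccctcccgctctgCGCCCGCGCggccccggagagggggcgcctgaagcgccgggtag
BTG2 (chr1:203305269-203305568, + strand): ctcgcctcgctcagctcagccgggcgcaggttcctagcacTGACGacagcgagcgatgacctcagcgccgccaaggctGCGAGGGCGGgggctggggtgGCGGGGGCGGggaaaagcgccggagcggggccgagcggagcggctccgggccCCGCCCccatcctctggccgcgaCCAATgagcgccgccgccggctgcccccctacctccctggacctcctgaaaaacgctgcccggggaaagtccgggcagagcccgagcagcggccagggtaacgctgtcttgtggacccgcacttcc

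The motifs were the cyclic AMP response element (CRE, TGACGTCA), its core TGACG, the AP-1 site (TGANTCA), the EGR site (GCGNGGGCG), the ATF4 composite site (TGATGNAAT), the TATA box (TATAAA), the GC box (GGGCGG), the CCAAT box, and the CArG box, p53 and NF-kB motifs. The core lies inside the full CRE, and the EGR site can overlap the GC box. The ZFP36 promoter matched the GC box alone, at 3 positions, and 45.0% of 35116 RefSeq promoters hold that motif. The ZFP36L1 promoter holds a full CRE that begins 52 bases before the start, a motif present in 1.85% of promoters, and an EGR site. BTG2 has 2 EGR sites, which begin 172 and 151 bases before its start and each overlap a GC box. The EGR site is found in 9.43% of promoters.

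The core TGACG, in 24.6% of all promoters, occurred for BTG1 and BTG2, in both promoters of ZFP36L1 and in the more downstream of TOB1. BTG1 alone had a TATA box (11.5% of promoters). CCAAT boxes (34.6%) were found for BTG1 and BTG2, in the more downstream promoter of TOB1 and in the more upstream of ZFP36L1, which is not printed. The more upstream promoter of TOB1 matched no motif. The AP-1 site, the ATF4 composite site and the CArG, p53 and NF-kB motifs had no match, against 7.71%, 0.99%, 1.29%, 6.63% and 5.91% of all promoters. No match says only that these letters are not in this window.

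Transcripts of 7 of the 8 genes were higher at 8 h than at 4 h and none was lower, by the quasi-likelihood test of edgeR with Benjamini-Hochberg adjustment over 12559 genes. This is 87.5% of the genes, where 19.9% of all genes tested were higher and 18.8% were lower at an adjusted p below 0.05. The median log2 fold change of the 8 genes was 0.47, against 0.00 for all genes. In the same 7 genes both 8 h libraries lay above both 4 h libraries, as they did in 34.8% of all genes. One gene, ZFP36, was also a differentially expressed gene (DEG) by the thresholds of the study. These are an adjusted p below 0.05 with an absolute log2 fold change above 1. The study applied them to treated against untreated cells, and here they are applied to 8 h against 4 h. In all, 1.45% of genes were DEGs higher at 8 h and 3.88% DEGs lower at 8 h. The 8 genes rested on 301 to 10168 raw counts per library, and the shares of all genes were not matched to them for abundance. Since they were chosen with earlier results known, these shares are a description and were not tested as a set.

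**Figure D2:**
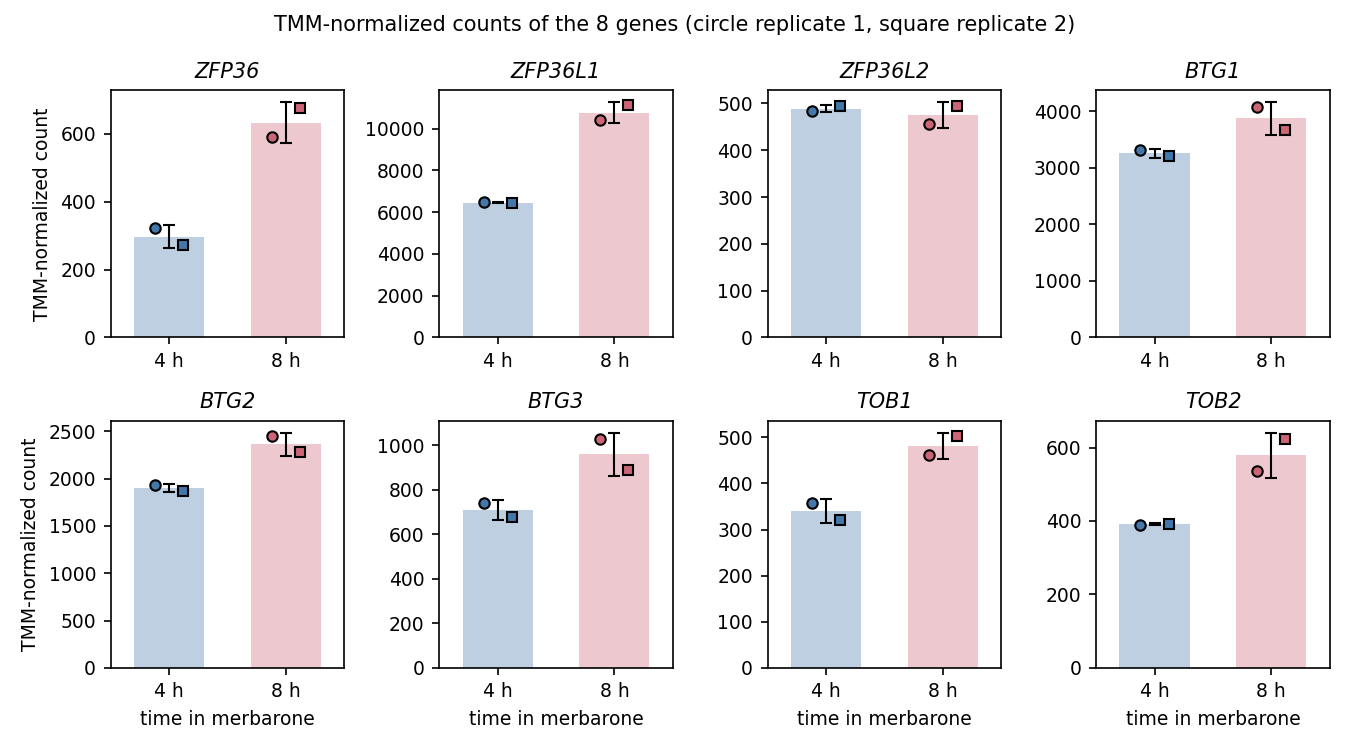
TMM-normalized counts of the 8 genes at 4 h (blue) and 8 h (red), with each panel on its own linear axis from 0. Points are the 2 libraries of a time, bars their mean and error bars the SD. ZFP36 rises from 322 and 273 to 591 and 676, and only ZFP36L2 overlaps between the times.

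Gene positions are given on GRCh37. Among the TTP-family genes, ZFP36 (gene 7538, chr19:39897487-39900052, + strand, 2 exons) showed the largest change. Its normalized counts, scaled by TMM to a library of 9586677 counts, were 322 and 273 at 4 h, against 591 and 676 at 8 h, and the times did not overlap. The mean went from 298 ± 34.9 to 634 ± 60.0 (SD, n = 2), a log2 fold change of 1.09 (SE 0.11, 95% interval 0.85 to 1.33). This is 2.12-fold, with an adjusted p of 5.15e-07 in edgeR. The gain itself held in all 12 alternative settings, with log2 fold changes of 0.97 to 1.20 and adjusted p-values up to 0.000131. The DEG call did not, because the value lies close to the threshold of 1. It was 0.97 without replicate 2 at 4 h, 0.99 without replicate 2 at 8 h, and 0.98 with scaling by library size alone, a scaling that moved the median of all genes to -0.11.

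ZFP36L1 (gene 677, chr14:69254377-69262970, - strand, 2 exons in the canonical transcript) was the most abundant of the 8 genes. It had 6476 and 6434 normalized counts at 4 h, against 10399 and 11114 at 8 h, again without overlap. Its log2 fold change was 0.74 (SE 0.07, 95% interval 0.59 to 0.88, 1.67-fold), with an adjusted p of 1.24e-07. The change stayed below the DEG threshold of size and passed the adjusted p threshold in all 12 alternatives, from 0.57 to 0.78.

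ZFP36L2 (gene 678, chr2:43449541-43453745, - strand, 2 exons) did not pass the test. Its normalized counts were 484 and 494 at 4 h, against 456 and 495 at 8 h, and the times overlapped. The log2 fold change was -0.04 (SE 0.10, adjusted p = 0.770), and its 95% interval, from -0.26 to 0.17, leaves out gains as large as those of ZFP36 and ZFP36L1. Its estimate ranged from -0.15 to 0.02 over the alternatives, with no adjusted p below 0.263.

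Ratios of raw counts within a library do not depend on scaling. The ZFP36 to ZFP36L2 ratio was 0.666 and 0.552 at 4 h, against 1.30 and 1.37 at 8 h. The ZFP36L1 to ZFP36L2 ratio was likewise higher at 8 h, at 22.8 and 22.5 after 13.4 and 13.0. ZFP36 to ZFP36L1 was 0.0498 and 0.0424 at 4 h, against 0.0568 and 0.0608 at 8 h, a smaller difference. None of these ratios overlapped between times. An exact permutation test of 2 against 2 libraries cannot give a p below 0.333, so the ratios carry no test.

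All 5 BTG/TOB genes rose, with estimates below that of ZFP36L1. TOB2 (gene 10766, chr22:41829498-41842805, - strand), like TOB1 a protein that binds both the deadenylase and poly(A)-binding protein, had the largest estimate of the 5. Its normalized counts were 389 and 393 at 4 h, against 535 and 622 at 8 h. The log2 fold change was 0.56 (SE 0.11, 95% interval 0.34 to 0.79) and the adjusted p 0.000357. TOB1 (gene 10140, chr17:48939584-48945339, - strand) went from 358 and 322 to 461 and 502. Its log2 fold change was 0.50 (SE 0.11, 95% interval 0.27 to 0.73, adjusted p = 0.00133). The intervals of TOB1 and TOB2 overlap almost fully, and the TOB2 to TOB1 count ratio, 1.09 and 1.22 at 4 h, against 1.16 and 1.24 at 8 h, overlapped between the times.

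BTG3 (gene 10950, chr21:18965971-18985263, - strand) differs in structure, with 5 exons against 2 in each of the other 7 genes. It had 742 and 676 normalized counts at 4 h, against 1028 and 890 at 8 h. The log2 fold change was 0.44 (SE 0.09, 95% interval 0.24 to 0.64, adjusted p = 0.00117). Reads were aligned without gaps, and 77.8% of the 75-base windows of its canonical transcript cross no exon junction, against 95.6% to 98.4% for the other genes. This lowers its counts per length, and whether it does so alike in every library was not tested.

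BTG2 (gene 7832, chr1:203274619-203278730, + strand), a known p53 target and immediate-early gene, and BTG1 (gene 694, chr12:92534054-92539622, - strand), its closest relative, had the smallest estimates of the genes that rose. BTG2 had 1933 and 1868 normalized counts at 4 h, against 2450 and 2278 at 8 h. Its log2 fold change was 0.32 (SE 0.08, 95% interval 0.15 to 0.48, adjusted p = 0.00303). BTG1 had 3310 and 3199 at 4 h, against 4073 and 3669 at 8 h, with a log2 fold change of 0.25 (SE 0.08, 95% interval 0.09 to 0.41, adjusted p = 0.0131). In both genes the 8 h libraries lay above the 4 h libraries.

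These last calls were the least firm of the 7. BTG1 was lost without replicate 1 at 4 h (0.27, adjusted p = 0.0790), without replicate 2 at 4 h (0.23, 0.135) and without replicate 1 at 8 h (0.17, 0.0764). It was also lost with library size alone, at 0.15 and an adjusted p of 0.141, and after a correction for the trend of fold change with abundance, at 0.10 and 0.305. BTG2 was lost under that correction (0.19, adjusted p = 0.0613) and without replicate 2 at 4 h (0.29, 0.0582). The estimates stayed above 0 in each case. The other 5 genes that rose kept an adjusted p below 0.05 in all 12 alternatives.

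**Figure D3:**
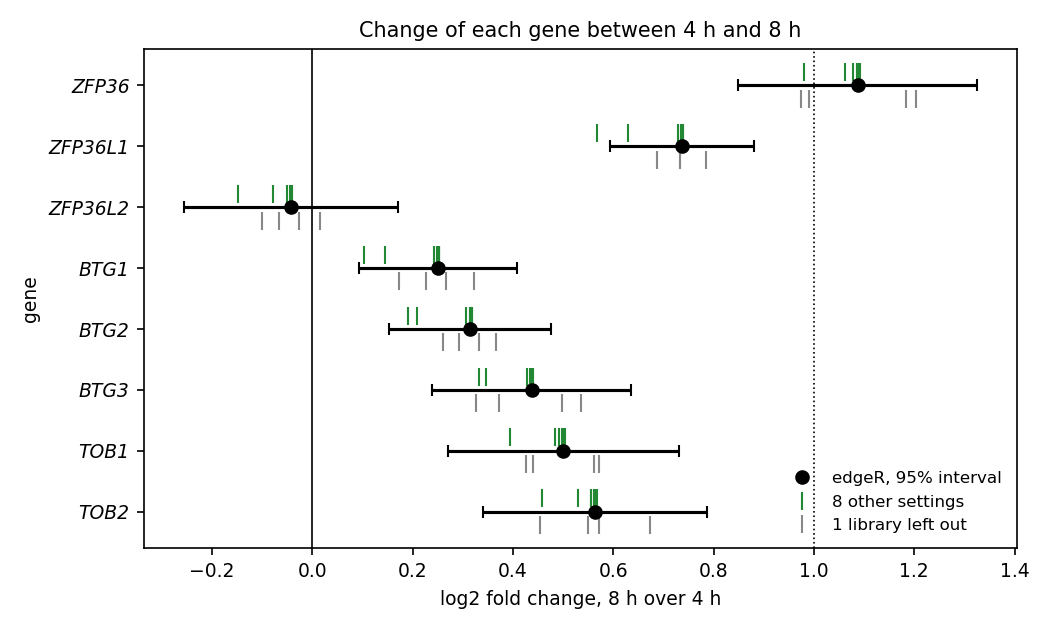
Log2 fold change of each gene, 8 h over 4 h, from edgeR with its 95% interval (black). Green ticks are the 8 other settings, grey ticks the 4 fits with 1 library left out, and the dotted line is the DEG threshold of 1. ZFP36 lies at 1.09 with ticks on both sides of the threshold, ZFP36L2 is the only gene whose interval holds 0, and the BTG/TOB genes lie between 0.25 and 0.56.

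Levels can be compared between genes only per length, and are given next as TMM-scaled CPM per kilobase of merged exons. ZFP36L1 stood highest, at 104 ± 0.476 at 4 h and 174 ± 8.16 at 8 h (SD, n = 2). BTG2 (71.9 ± 1.73 and 89.4 ± 4.63) and BTG1 (69.9 ± 1.68 and 83.2 ± 6.13) followed, with ranges that overlapped at both times. BTG3 came next at 32.1 ± 2.11 and 43.4 ± 4.42.

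The remaining 4 genes were low, and their order changed with time. At 4 h the libraries of TOB1 (14.1 ± 1.06) overlapped those of both ZFP36 (15.7 ± 1.84) and ZFP36L2 (13.8 ± 0.207), and TOB2 was lowest at 9.38 ± 0.0674. At 8 h ZFP36 had moved to 33.4 ± 3.16, apart from TOB1 at 19.9 ± 1.19. TOB2 (13.9 ± 1.49) and ZFP36L2 (13.4 ± 0.767) overlapped at the bottom. The length used changed both levels and order. With junction-free 75-base windows in place of merged exons, a choice made after seeing the data, BTG3 reached 96.2 at 8 h, beside BTG2 at 95.5 and BTG1 at 90.1. ZFP36L1 was at 391 by that measure, against 174, and ranked first with each length.

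Within the TTP family, ZFP36L1 made up 77.3% and 78.5% of the summed level per kilobase at 4 h, against 79.2% and 78.3% at 8 h. The ZFP36 share was 12.6% and 10.9% at 4 h, against 14.7% and 15.6% at 8 h. The ZFP36L2 share went down from 10.1% and 10.6% to 6.08% and 6.10%, while its own level did not pass the test. With junction-free windows the ZFP36L2 share at 8 h was 3.12% and 3.14%. Without division by length the ZFP36L1 share was 88.9% to 90.9%.

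In the BTG/TOB family, BTG1 made up 35.2% and 35.7% at 4 h, against 33.8% and 32.7% at 8 h, and BTG2 made up 36.2% and 36.7% at 4 h, against 35.8% and 35.8% at 8 h. BTG3 held 16.6% and 15.9% at 4 h, against 18.0% and 16.7% at 8 h. With merged exons the shares did not overlap between the times in any of the 5 genes. Those of BTG1 and BTG2 were lower and those of the other 3 higher at 8 h. The shares of TOB1 overlapped with the longest transcript, and those of TOB1 and TOB2 with junction-free windows. Shares within a family are parts of the same whole, so the 5 are not independent. As for the ratios, 2 against 2 libraries cannot give an exact permutation p below 0.333, so the shares carry no test. TOB1 went from 7.33% and 6.91% to 7.38% and 8.62%, and TOB2 from 4.62% and 4.89% to 4.97% and 6.21%. The summed level of the family was 202 and 193 at 4 h, against 259 and 241 at 8 h, and that of the TTP family 135 and 132 at 4 h, against 212 and 229 at 8 h.

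**Figure D4:**
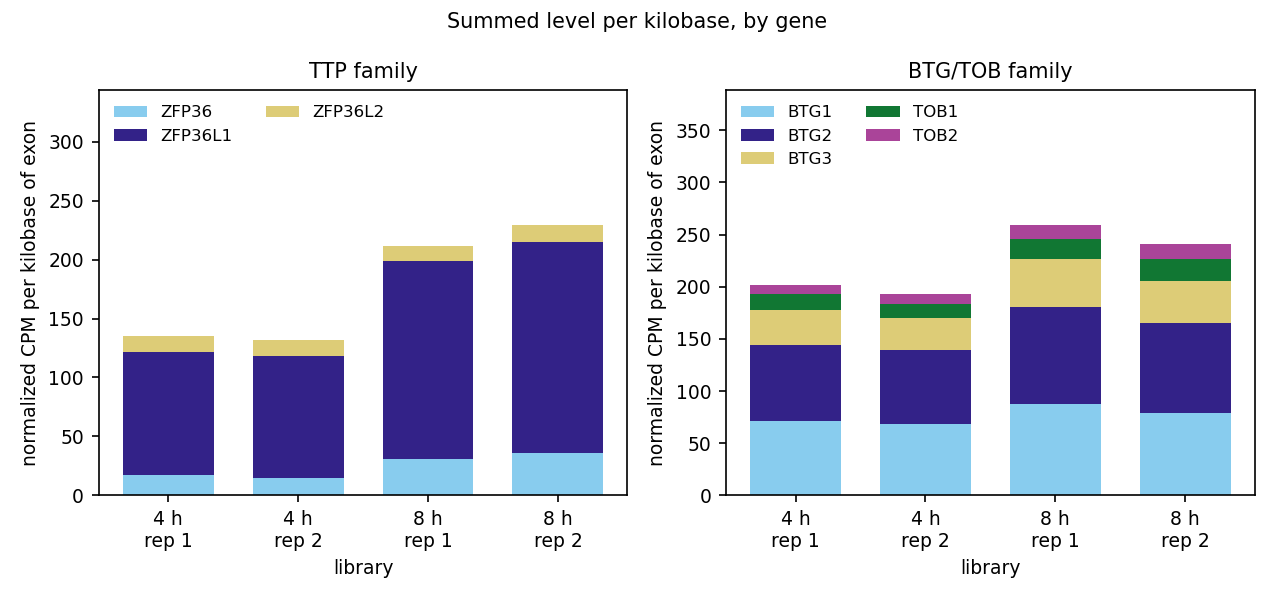
Summed level of each family in each library, in normalized CPM per kilobase of merged exons on linear axes from 0, split by gene. ZFP36L1 (dark blue, left) takes 77.3% to 79.2% of the TTP family, and BTG1 and BTG2 together are the bulk of the BTG/TOB family in all 4 libraries.

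Other transcribed units at these loci were checked, because counts on overlapping genes are uncertain where the use of strand in counting is not stated. TOB1-AS1 overlaps TOB1 on the opposite strand over 1300 bases and had 6 to 11 counts per library. LINC01619, which overlaps BTG1 on the same strand, had at most 1 count. The divergent neighbours BTG2-DT and LINC01126, near BTG2 and ZFP36L2, had at most 1 and 5 counts. BTG1-DT and BTG3-AS1 overlap BTG1 and BTG3 by 274 and 1250 bases but are not listed among the counted genes. Unnamed long non-coding RNA genes overlap ZFP36L2 on the opposite strand by 826 bases and ZFP36L1 on the same strand by 512 bases. These are not listed either. The paralog BTG4, which acts in oocytes, had 1 count in 1 library and 0 in the other 3, and the pseudogene TOB2P1, at 28 to 45 counts, had a log2 fold change of -0.01 (adjusted p = 0.985).

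The genes whose pattern over the 4 libraries was most like that of ZFP36 were SLC6A15, CDK6 and SH3RF1. Likeness was the Euclidean distance between log2-CPM values centred on the mean of each gene, among 9378 genes whose normalized counts averaged 100 or more. SLC6A15, a transporter of neutral amino acids, lay at 0.0763 with a log2 fold change of 1.10. CDK6, a kinase of G1 progression, lay at 0.0921 (1.03), and SH3RF1, a scaffold of JNK signalling, at 0.118 (1.02). With only 4 libraries this is a description.

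Around these regulators, genes linked to mRNA decay lay on both sides. Of 136 tested genes in 7 lists, called decay lists here, 48 were higher and 30 lower at 8 h. With library size alone 35 were higher and 41 lower. The 136 include 15 genes of the p38-MK2 arm and 31 TTP-family targets, which are not decay machinery. The counts of each list are to be read against all tested genes, of which 19.9% were higher and 18.8% lower. The 64 genes of CCR4-NOT, the other deadenylases and poly(A)-binding proteins, decapping and the exosome were near those shares, with 13 higher (20.3%) and 15 lower (23.4%). The 13 include PABPC1 and PABPC3, which may share reads and are taken up below. The count of 78 fell to 49 without replicate 2 at 4 h. In CCR4-NOT, 2 of 12 genes were higher and 2 lower (16.7% each, near the shares of all genes), with a median log2 fold change of 0.04. Without either library at 4 h 1 was higher and 1 lower, and without replicate 1 at 8 h 4 were higher and 1 lower. The CNOT7 and CNOT8 nucleases, named here for their binding to BTG/TOB proteins after their values were seen, had log2 fold changes of -0.01 (95% interval -0.23 to 0.20) and -0.05 (-0.24 to 0.14). CNOT10, a subunit of a peripheral module, was lowest, with 246 and 217 normalized counts at 4 h, against 156 and 117 at 8 h (log2 fold change -0.75, SE 0.16, adjusted p = 0.00116). TNKS1BP1, a CCR4-NOT associated protein, was at 0.36 (SE 0.08, adjusted p = 0.00132). CNOT3 was at 0.35 (SE 0.10, adjusted p = 0.00965), a call lost without replicate 1 (adjusted p = 0.0738) or replicate 2 (0.0739) at 4 h and with library size alone (0.0632).

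Of 16 poly(A)-binding proteins, PAN2-PAN3 subunits and other deadenylases, 4 were higher (25%, against 19.9% of all genes) and 6 lower (37.5%, against 18.8%), with a median of -0.21. The 4 higher genes were PABPC1, PABPC3, PABPC4 and PAIP2. PABPC1 and PABPC3 had log2 fold changes of 0.43 and 0.33. Whether reads of PABPC1 were counted on PABPC3 was not tested, so these may not be separate rises. The largest falls were in deadenylases. PAN2, which starts tail shortening, fell by 0.60 on the log2 scale (SE 0.12, adjusted p = 0.000571), and PARN fell by 0.57 (SE 0.13, adjusted p = 0.00219). TOE1, which trims small nuclear RNAs, fell by 0.58 (SE 0.17, adjusted p = 0.0119), and its call was lost without replicate 2 at 4 h (-0.36, adjusted p = 0.243) and by DESeq2 (0.0537).

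In the steps that follow deadenylation, 6 of 20 genes of decapping and 5′ to 3′ decay were higher (30%) and 1 was lower (5%), with a median of -0.02. The decapping cofactor DCP1B rose by a log2 fold change of 0.74 (SE 0.12, adjusted p = 5.67e-05) and the helicase DDX6 by 0.60 (SE 0.09, adjusted p = 1.83e-05). LSM7 was at 0.63 (adjusted p = 0.00882), and its call was lost without replicate 2 at 8 h (0.26, adjusted p = 0.251) and without replicate 1 at 4 h (0.56, 0.0890). For the exosome and SKI complex, which degrade RNA from the 3′ end, 1 of 16 genes was higher (6.25%, against 19.9% of all genes) and 6 lower (37.5%, against 18.8%), with a median of -0.12, and DESeq2 called 0 higher and 2 lower. The catalytic subunit EXOSC10 fell by 0.80 (SE 0.12, adjusted p = 3.14e-05).

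The ring subunits EXOSC9 and EXOSC4 were less firm. EXOSC9 was at -0.72 (adjusted p = 0.0108), a call lost without replicate 2 at 8 h (-0.32, 0.141), replicate 1 at 4 h (0.0515) or replicate 2 at 4 h (0.0728). EXOSC4 was at 0.61 (adjusted p = 0.0152), a call lost without replicate 1 at 4 h (0.157) or replicate 2 at 8 h (0.0636). DESeq2 called neither. The 6 lower genes of the list became 3 without replicate 1 and 1 without replicate 2 at 4 h.

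Other proteins that regulate mRNAs through the 3′ UTR were the list with the largest share of rises. Of 26 tested genes, 15 were higher (57.7%, against 19.9% of all genes) and 3 lower (11.5%, against 18.8%), with a median log2 fold change of 0.51, and with library size alone 12 were higher and 6 lower. The 3 lower genes became 1 without replicate 2 at 4 h and 5 after the correction for abundance. SAMD4A, the human relative of the fly repressor Smaug, had 426 and 350 normalized counts at 4 h, against 890 and 773 at 8 h (log2 fold change 1.10, SE 0.11, adjusted p = 2.81e-07). AGO2, the slicing Argonaute of the microRNA pathway, had 158 and 183 at 4 h, against 361 and 327 at 8 h (log2 fold change 1.01, SE 0.13, adjusted p = 8.67e-06). RC3H1, the stem-loop binding protein roquin-1, rose by a log2 fold change of 0.87 (SE 0.13, adjusted p = 4.18e-05). SAMD4A and AGO2 were DEGs, as was CPEB3 on few counts, 12.6 and 13.6 at 4 h, against 20.5 and 33.5 at 8 h (log2 fold change 1.01, adjusted p = 0.0470). The DEG call was lost for SAMD4A without replicate 2 at 4 h (0.967), without replicate 1 at 8 h (0.993) and with library size alone (0.996), and for AGO2 without replicate 1 at 4 h (0.903), without replicate 1 at 8 h (0.938) and with library size alone (0.909). The adjusted p of CPEB3 was no longer below 0.05 without replicate 2 at 8 h (0.64, adjusted p = 0.316), replicate 1 at 4 h (0.193) or replicate 2 at 4 h (0.148), and with limma-voom, DESeq2, library size alone or no filter.

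The genes of the p38-MK2 arm, whose kinases phosphorylate TTP and whose 14-3-3 proteins then bind it, lay on both sides. Of 15 tested, 5 were higher (33.3%, against 19.9% of all genes) and 3 lower (20%, against 18.8%), with a median of -0.06, and these became 0 higher and 7 lower with library size alone and 0 and 6 after the correction for abundance. MAPK14, which encodes p38 alpha, fell by 0.41 on the log2 scale (SE 0.10, adjusted p = 0.00249), and the 14-3-3 gene YWHAB fell by 0.40 (SE 0.07, adjusted p = 0.000255). MAP2K3, a kinase upstream of p38, was at 0.31 (adjusted p = 0.00885). Its call was lost under both of those corrections (0.0742 and 0.0814) and without replicate 2 at 4 h (0.107) or replicate 1 at 8 h (0.0962). The 5 higher genes became 0 without replicate 2 at 4 h, 2 without replicate 1 at 4 h and 3 without replicate 1 at 8 h.

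Transcripts known as targets of the TTP family did not move together. Of 38 listed, 31 passed the filter, and 15 of these were higher and 9 lower, with a median log2 fold change of 0.13. These are 48.4% and 29.0%, against 19.9% and 18.8% of all genes. TNF, the classic target of TTP, had 0 counts in all 4 libraries. The heptamer TATTTAT was present in 28 of the 31 (90.3%), against 37.0% of 11699 tested genes with an annotated 3′ UTR, which describes the list rather than these cells.

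Of the 31 tested target genes, 6 were DEGs higher at 8 h, where 1.45% of all genes tested were. The cytokine gene IL6 had 109 and 131 normalized counts at 4 h, against 335 and 374 at 8 h (log2 fold change 1.55, SE 0.14, adjusted p = 1.17e-07). The AP-1 gene FOS (1.31, SE 0.10, adjusted p = 1.22e-08) and the MAP kinase phosphatase DUSP1 (1.31, SE 0.07, adjusted p = 2.58e-10) also rose, as did the Hippo kinase LATS2 (1.03, SE 0.08, adjusted p = 1.70e-08). LATS2 lay below the DEG threshold of 1 without replicate 1 at 4 h (0.999), without replicate 2 at 8 h (0.949), with library size alone (0.922) and after the correction for abundance (0.914). CXCL2 rose on few counts, from 14.4 and 8.16 to 43.0 and 50.9 (2.04, SE 0.35, adjusted p = 0.000160). CCL3, from 11.7 and 13.6 to 31.7 and 22.4 (1.11, adjusted p = 0.0273), was lost by DESeq2 (0.179) and without replicate 1 at 4 h (0.161), replicate 2 at 4 h (0.0947) or replicate 1 at 8 h (0.202).

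Of the same 31 genes, 3 were DEGs lower at 8 h, where 3.88% of all genes tested were. The cyclin gene CCNE2 fell by 2.67 on the log2 scale, from 69.1 and 68.0 normalized counts to 8.18 and 13.7 (SE 0.33, adjusted p = 3.83e-06). The chemokine gene CCL2 fell by 1.01 (SE 0.12, adjusted p = 2.23e-06), from 607 and 496 to 273 and 273, and was no DEG without replicate 1 at 4 h (-0.87). CXCL1 fell by 1.14 on 30.5 and 21.8 against 10.2 and 13.7 normalized counts (adjusted p = 0.0299), a call lost without replicate 1 at 4 h (0.232) or at 8 h (0.137), by DESeq2 (0.186) and after the correction for abundance (0.0801). Related chemokine genes of the list, CXCL1 and CXCL2, thus lay on opposite sides of 0.

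**Figure D5:**
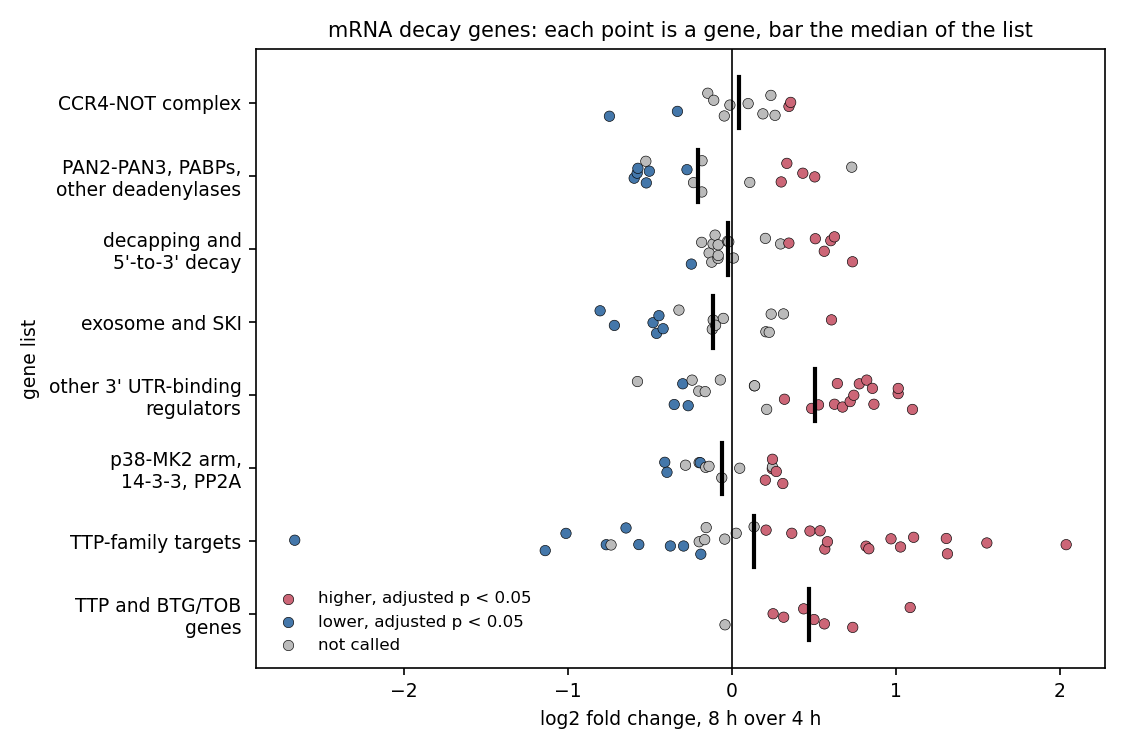
Log2 fold change, 8 h over 4 h, of each tested gene in the 7 decay lists and of the 8 TTP and BTG/TOB genes, one row per list, with points spread vertically for legibility and a bar at the median. Red genes were higher and blue genes lower at an adjusted p below 0.05, and the medians are 0.51 for the other 3′ UTR-binding regulators and 0.47 for the TTP and BTG/TOB genes, against -0.21 to 0.13 for the remaining lists.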

How the data were processed

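RNA-Seq reads of 4 libraries (single reads of 75 bases from a stranded kit) were mapped by the authors to hg19 with Bowtie 1.2.0, the version in the submitters' processing notes. Reads with a single position were kept, and each deposited file gives the raw counts of 1 library by gene. The counting tool, annotation and use of strand are not given in the sources used here. Alignment without gaps loses reads across splice junctions, and all columns were matched to samples.

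Groups came from the sample labels. The filter was a CPM over 1 in 2 or more libraries, which 12559 of 23459 genes passed. Counts were scaled by TMM and tested for 8 h against 4 h with the quasi-likelihood test of edgeR 4.0.16 (R 4.3.3), a model fitted across all genes with Benjamini-Hochberg adjustment. The code was tested on simulated data. Alternatives were limma-voom (limma 3.58.1, the test of the study), DESeq2 1.42.0, RLE size factors, library size alone, 2 other filters, an offset for the lowess trend with mean log2-CPM, a block for the replicate number, and fits without 1 of the libraries. Replicates are biological per the study. The p-values rest on the spread between 2 libraries per time, moderated by the spread shared across all genes.

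The genes and lists were chosen with earlier results of these data known. In each list, DEGs and up to 3 called genes with the largest change, normalized counts averaging 100 or more at the higher time and separate libraries at each time were named, as were listed neighbours of the 8 genes (except 1, not reported here), BTG4, and the 3 genes most like each DEG among the 8. Symbols and promoters came from RefSeq on GRCh38.p14, and positions and 3′ UTRs from GENCODE on GRCh37.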

Additional observations from a re-analysis of the deposited data

How the results depend on the processing

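With 2 libraries per time and 8064450 to 10324697 counts each, calls rest on the spread shared across genes. The 7 genes with an adjusted p below 0.05 stayed 7 with limma-voom, DESeq2, RLE size factors, either filter and the replicate block, and were 6 with library size alone, 5 after the correction for abundance and 5 to 7 with 1 library left out. The single DEG of the 8 became 0 with library size alone and 0 to 1 with 1 library left out, since ZFP36 lies near the threshold of 1. The 78 genes called in the decay lists became 49 to 72 with 1 library left out, the lowest without replicate 2 at 4 h, and 56 by DESeq2. The cause was not tested. For the 8 genes and the 28 genes named from the lists, no called fold change reversed in any alternative.

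Deviations of libraries with the same replicate number were correlated at 0.048, so the numbers were not taken as pairs. In a model with the replicate block, 7 of the 8 genes were called, 1 of them a DEG, and 85 list genes, 50 higher and 35 lower. Among the values that are not calls, levels per kilobase and family shares moved with the length used.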

Other observations

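Across all tested genes with an annotated 3′ UTR, the number of TATTTAT heptamers and the change from 4 h to 8 h can be set side by side. The median log2 fold change was 0.00 in 7365 genes without a heptamer, 0.00 in 2441 genes with 1, 0.02 in 1017 genes with 2 and 0.08 in 876 genes with 3 or more. The share higher at an adjusted p below 0.05 in edgeR was 19.5%, 21.3%, 23.1% and 27.2%, and the share lower was 18.7%, 20.2%, 18.6% and 13.7%. UTR length moved with these classes, from a median of 885 bases to 4530 bases.

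Within 4 equal-sized bins of UTR length, the share higher was 19.9% without and 24.7% with a heptamer in the shortest UTRs, 18.9% and 22.4% in the next, 18.5% and 20.3% in the following one, and 21.4% and 24.6% in the longest. The share lower was 14.9% without and 18.8% with a heptamer in the shortest UTRs, 20.1% and 20.7% in the next, 21.6% and 18.7% in the following one, and 21.3% and 17.6% in the longest. The share higher was thus larger with a heptamer in all 4 bins. With a heptamer, the share lower was larger in the shortest UTRs, close in the next bin and smaller in the longer bins. Genes are not independent replicates, and these values are given without a test. In each bin the UTRs with a heptamer were still the longer ones. Their median length was 358 against 275 bases in the shortest bin and 4540 against 3795.5 bases in the longest. The parts of this remaining length, of base composition and of abundance in these shares were not tested.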
